A study of Mus musculus with 12 samples.

Results

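The transcripts of 8 genes made by blood cells were followed through RNA-seq of whole hippocampus from 12 mice, out of 55421 genes in the count files, of which 35930 had at least 1 read in a library. The genes were taken by name and all 8 were found by their Ensembl identifiers: the adult hemoglobin genes *Hba-a1*, *Hba-a2*, *Hbb-bs* and *Hbb-bt*, the red cell genes *Alas2* and *Slc4a1*, and *S100a8* and *S100a9*, which encode calprotectin. *Fmr1* knockout mice (KO, *Fmr1*-/y, a germline loss of the gene that is mutated in fragile X syndrome) and their wild-type littermates (WT, *Fmr1*+/y) were injected intraperitoneally at 2 months of age with Nutlin-3, an inhibitor of MDM2 that stabilizes p53, or with vehicle. The dose was 10 mg/kg, given in 5 injections. The hippocampus was taken at 6 months of age, and 3 mice each made up WT-Veh and KO-Veh (vehicle) and WT-Nut3 and KO-Nut3 (Nutlin-3). Mice are named here by the RH numbers in the library titles, called animal numbers below. The methods mention perfusion of the mice for histology and do not mention it for the tissue used for RNA.

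Hemoglobin carries oxygen in red cells as a tetramer of alpha and beta chains around heme. A mature mouse red cell has no nucleus, and its hemoglobin transcripts come from the reticulocyte, the young red cell that still holds RNA. *Alas2* encodes the erythroid form of the enzyme that starts heme synthesis, and *Slc4a1* encodes band 3, the anion exchanger of the red cell membrane. Calprotectin is an abundant cytosolic complex of neutrophils and is also made by monocytes. Hemoglobin transcripts have also been described in some neurons and glia, so that in brain tissue these genes are not strict markers of blood. In bulk tissue, fewer cells of a type and less RNA per cell cannot be told apart.

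Reads on genes ranged from 17150820 to 20040482 per library, and 3 reads, the floor used here for a gene, corresponded to 0.149 to 0.179 CPM (counts scaled to the size of the library, with TMM factors). Floors and intervals given below cover counting error only. *Fmr1* stood at 79.5, 75.3 and 77.7 CPM in WT-Veh, at 75.2, 74.0 and 78.3 CPM in WT-Nut3, at 32.7, 32.5 and 37.3 CPM in KO-Veh and at 30.6, 28.5 and 35.7 CPM in KO-Nut3. Its 6 KO libraries all lay below its 6 WT libraries (log2 fold change -1.22, SE 0.0555, adjusted *P*-value 1.71e-08 in the quasi-likelihood test of edgeR), as the labels require. The 10 marker genes of hippocampal neurons, led by *Snap25*, *Slc17a7* and *Nrgn*, summed to 4267 CPM in KO-Nut3 RH6 and to between 5266 and 5931 CPM in the other libraries.

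A pair of libraries stood apart in genes outside the hippocampal program and also carried the most calprotectin reads. WT-Veh RH15 held 20 genes with at least 20 reads there and at most 3 reads in any other library, and KO-Nut3 RH6 held 11 such genes. WT-Nut3 RH1 held 1, *Usp9y*, and the other 9 libraries held 0. This count was made after the values had been seen. The main results that rest on WT-Veh RH15 or KO-Nut3 RH6 are given below with and without them.

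The hemoglobin genes lie in the alpha and beta clusters of chromosomes 11 and 7, and the copies within a cluster are nearly the same in sequence. *Hba-a1* (ENSMUSG00000069919) spans 32283511 to 32284465 and *Hba-a2* (ENSMUSG00000069917) spans 32296489 to 32297298 on the plus strand of chromosome 11 in GRCm38. *Hbb-bs* (ENSMUSG00000052305) spans 103826534 to 103828096 and *Hbb-bt* (ENSMUSG00000073940) spans 103812524 to 103813996 on the minus strand of chromosome 7. In the GENCODE M21 transcripts, the coding bases of *Hba-a1* and *Hba-a2* differed at 1 of 426 positions (C381T, counted from the start codon), and those of *Hbb-bs* and *Hbb-bt* at 1 of 441 positions (C417T). The lines below show these positions as capitals, because they are what separates the copies within the coding sequence.
Hba-a1, coding bases 371 to 391: cctctctggaCaaattccttg
Hba-a2, coding bases 371 to 391: cctctctggaTaaattccttg
Hbb-bs, coding bases 407 to 427: ctggagtggcCgctgccctgg
Hbb-bt, coding bases 407 to 427: ctggagtggcTgctgccctgg

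The counts keep reads that map to a single place, so a read lying wholly in sequence common to both copies is not counted for either. Of all stretches of 150 bases, 48.4% in *Hba-a1*, 65.7% in *Hba-a2*, 58.7% in *Hbb-bs* and 50.7% in *Hbb-bt* also occur in another hemoglobin transcript. The level of each copy is therefore uncertain as an absolute value, and the division of reads between copies is given as counted. Beside the copies, *Alas2* (X, 150547375 to 150570638) lies within the span of *Apex2* on the opposite strand, and because the counts used sum both strands, reads of *Alas2* and *Apex2* in shared sequence cannot be told apart.

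Promoters were read for 7 of the 8 genes, from 250 bases before to 50 bases after the RefSeq start in GRCm38.p6, to show what the genes share upstream. All 4 hemoglobin genes had the letters ATATAA on the gene's own strand, between 28 and 31 bases before the start, which 5.95% of 27025 promoters had on that strand anywhere in the window. The windows are shown with ATATAA in capitals, and those of *Hba-a1* and *Hba-a2* were the same.
Hba-a1, chr11:32283636-32283657, plus strand: tggagggcATATAAgtgctact
Hba-a2, chr11:32296453-32296474, plus strand: tggagggcATATAAgtgctact
Hbb-bs, chr7:103827945-103827966, minus strand: ggcagagcATATAAggtgaggt
Hbb-bt, chr7:103813939-103813960, minus strand: cattgggtATATAAagctgagc

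GATA1 is the leading erythroid transcription factor, and the letters of its motif searched were AGATAA and TGATAA on both strands. The promoters of *Hba-a1*, *Hba-a2*, *Hbb-bs*, *Alas2* and *S100a9* had a match, against 16.99% of all promoters, and those of *Hbb-bt* and *S100a8* had none in this window. The matches are in capitals below, and that of *Alas2* is on the strand opposite to the gene.
Hba-a1, chr11:32283481-32283502: cgggcaacTGATAAggattccc
Hbb-bs, chr7:103828125-103828146: ctctgcacAGATAAggacaaac
Alas2, chrX:150547323-150547344: tttgctttTTATCTttagcaga
S100a9, chr3:90695738-90695759: cttccccgAGATAAccatgtat

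The match of *Hba-a2* has the same window as that of *Hba-a1* and lies 186 bases before the start. *Hbb-bs* also had CCACACCC, letters bound by the erythroid factor KLF1, which 3.19% of promoters had on either strand. CCAAT was found in all 4 hemoglobin promoters and in 34.5% of promoters on either strand. A match is a description of the letters and not a measurement of binding.

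Hemoglobin transcripts were present in every library at low levels, and no group stood clear of another. The 4 genes together summed to 55.5, 40.4 and 57.2 CPM in WT-Veh, to 44.7, 49.3 and 67.9 CPM in WT-Nut3, to 45.8, 42.8 and 59.7 CPM in KO-Veh and to 81.7, 46.2 and 63.3 CPM in KO-Nut3. KO-Nut3 RH6 was the highest of the 12 and WT-Veh RH5 the lowest, and the ranges of all groups overlapped. The means were 51.0 ± 9.23 CPM in WT-Veh, 54.0 ± 12.2 CPM in WT-Nut3, 49.5 ± 8.99 CPM in KO-Veh and 63.7 ± 17.7 CPM in KO-Nut3 (mean ± SD of 3 mice).

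*Hbb-bs*, the main adult beta gene, stood at 29.0, 21.8 and 29.3 CPM in WT-Veh, at 23.4, 27.4 and 37.4 CPM in WT-Nut3, at 25.9, 22.9 and 32.0 CPM in KO-Veh and at 42.3, 23.1 and 33.7 CPM in KO-Nut3. Its highest level, in KO-Nut3 RH6, rested on 763 reads, and its lowest, in WT-Veh RH5, on 415 reads. The groups overlapped, and 2 libraries of KO-Nut3 lay above all of KO-Veh while the third lay among them. Over the 12 libraries the coefficient of variation of *Hbb-bs* was 21.96%, against 4.33% from read counting alone.

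*Hba-a1*, an alpha gene, stood at 21.7, 15.7 and 23.3 CPM in WT-Veh, at 16.6, 17.5 and 23.6 CPM in WT-Nut3, at 16.2, 16.01 and 23.0 CPM in KO-Veh and at 30.7, 19.2 and 23.8 CPM in KO-Nut3. The highest library was again KO-Nut3 RH6 and the lowest again WT-Veh RH5. *Hba-a2*, its near copy, had 14 to 44 reads per library, or 0.735 to 2.47 CPM with a median of 1.61 CPM. Its highest library was WT-Nut3 RH14, and its variation of 33.2% stood against 18.8% from counting.

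*Hbb-bt*, the minor adult beta gene, stood at 3.11, 2.21 and 3.04 CPM in WT-Veh, at 4.01, 2.48 and 4.37 CPM in WT-Nut3, at 2.58, 2.65 and 3.08 CPM in KO-Veh and at 6.66, 2.63 and 4.01 CPM in KO-Nut3. In 4 of the 6 Nut3 libraries it lay above all 6 Veh libraries, and in the other 2 it lay within their range. Per kilobase of exon, the mean level over the 12 libraries was 37.8 CPM for *Hbb-bs*, 25.4 CPM for *Hba-a1*, 4.84 CPM for *Hbb-bt* and 2.31 CPM for *Hba-a2*, without correction for the sequence that the copies share.

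The division of reads between the copies was similar in most libraries. *Hba-a2* took 4.39% to 9.95% of the alpha reads with a median of 6.997%, and *Hbb-bt* took 8.32% to 14.6% of the beta reads with a median of 9.96%. The share of *Hbb-bt* was 14.6% in WT-Nut3 RH1 (95% exact binomial interval 11.8% to 17.9%) and 13.6% in KO-Nut3 RH6 (11.4% to 16.03%), and at most 10.6% in the other 10 libraries. The alpha genes gave 38.0% to 44.4% of the adult hemoglobin reads. These intervals cover counting error, and the reads may include copies of 1 molecule.

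**Figure D1:**
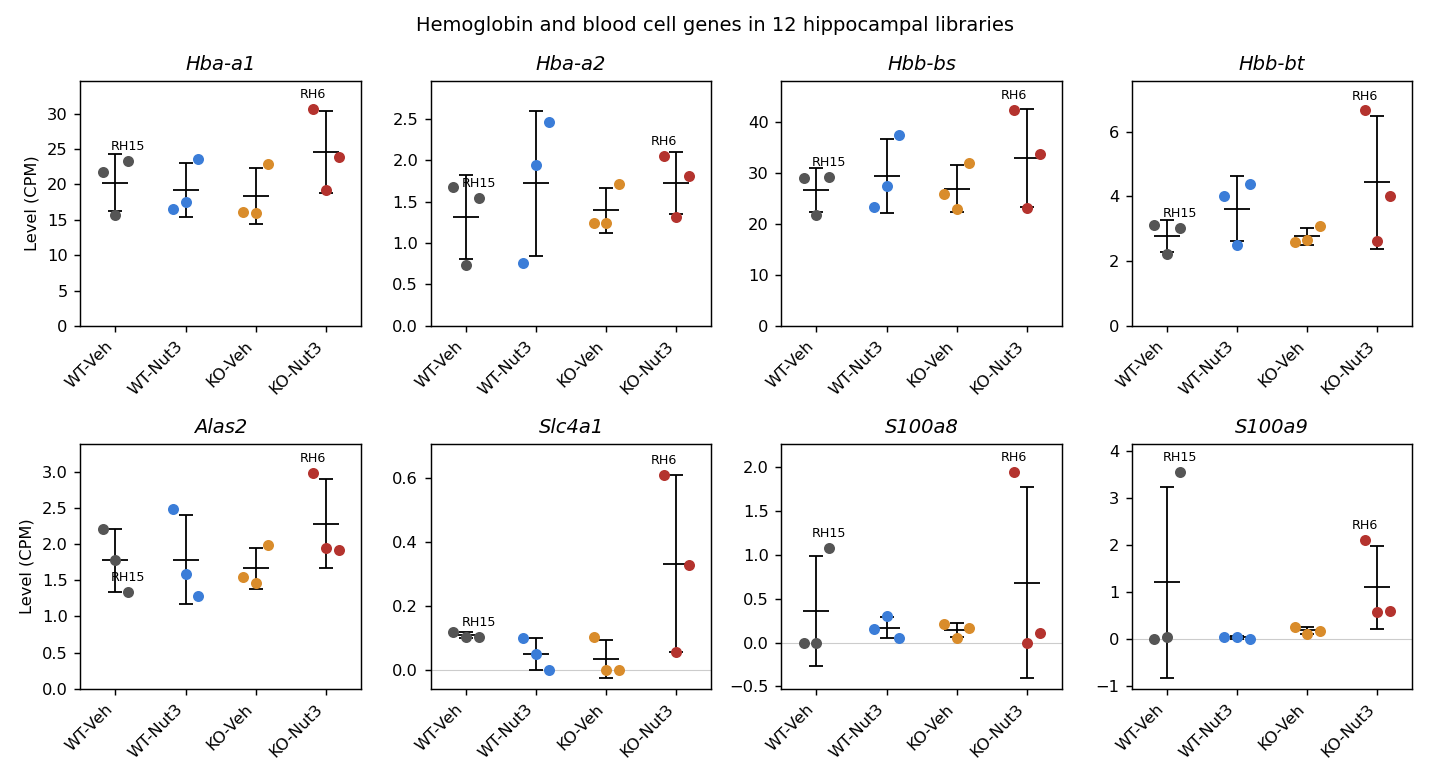
Level of each of the 8 genes in CPM (y axis, a linear scale per gene) in the 12 libraries, by group (x axis). Points are single mice in the order of their animal numbers, and the bar and whiskers are the mean and SD of 3. The hemoglobin genes overlap between groups with KO-Nut3 RH6 at 42.3 CPM for *Hbb-bs*, and *S100a9* rests on WT-Veh RH15 (3.55 CPM) and KO-Nut3 RH6 (2.11 CPM).

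*Alas2* was in the range of *Hba-a2* and *Hbb-bt* as counted, and *Slc4a1* had the fewest reads of the 8 genes. *Alas2* stood at 2.21, 1.79 and 1.34 CPM in WT-Veh, at 2.49, 1.59 and 1.29 CPM in WT-Nut3, at 1.55, 1.47 and 1.99 CPM in KO-Veh and at 2.99, 1.95 and 1.92 CPM in KO-Nut3, from 23 to 54 reads. KO-Nut3 RH6 was the highest, and the other libraries of KO-Nut3 lay within the range of KO-Veh. *Slc4a1* had 2, 2 and 2 reads in WT-Veh, 2, 1 and 0 in WT-Nut3, 2, 0 and 0 in KO-Veh, and 11, 1 and 6 in KO-Nut3. Every library outside KO-Nut3 was thus at or under the floor of 3 reads. KO-Nut3 held 18 of its 29 reads, so *Slc4a1* passed the filter of more than 20 reads only through the group where it was high. In comparisons with KO-Nut3, in the interaction and in the pooled comparisons, its *P*-values, ratios, intervals and directions are therefore no independent support.

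Calprotectin was near the floor in most libraries and high in the pair that stood apart. *S100a9* had 0, 1 and 69 reads in WT-Veh, 1, 1 and 0 in WT-Nut3, 5, 2 and 3 in KO-Veh, and 38, 10 and 11 in KO-Nut3. *S100a8* had 0, 0 and 21 reads in WT-Veh, 3, 6 and 1 in WT-Nut3, 4, 1 and 3 in KO-Veh, and 35, 0 and 2 in KO-Nut3. WT-Veh RH15 and KO-Nut3 RH6 were the highest libraries for both genes. For *S100a9* the 3 KO-Nut3 libraries all lay above the 3 KO-Veh libraries and above the 3 WT-Nut3 libraries, whereas for *S100a8* 1 library of KO-Nut3 had 0 reads.

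The first comparison asked how KO mice given Nutlin-3 differed from KO mice given vehicle. Of 22592 genes tested with edgeR, 45 passed the threshold of an adjusted *P*-value under 0.05 (0.199%), and 0 of the 8 genes were among them. By unadjusted *P*-values under 0.05, 2 of the 8 passed (*S100a9* and, subject to that filter, *Slc4a1*), against 7.6% of all genes, and DESeq2 and limma-voom also called 0 of the 8. The count over all genes itself varied, with 245 in DESeq2, 19 in limma-voom and 0 with all 12 libraries in one edgeR fit, 266 without KO-Nut3 RH8, and 6, 6 and 7 without KO-Veh RH7, RH10 and RH16. All 8 log2 fold changes were above 0, as were 50.8% of all genes, with a median of 0.56 against 0.00 (0.00340) over all genes. The 8 values come from the same 6 libraries, so their directions are not separate observations.

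Within that comparison the hemoglobin genes differed by 0.29 to 0.68 on the log2 scale. The values were 0.42 for *Hba-a1* (SE 0.187, adjusted *P*-value 0.661), 0.31 for *Hba-a2* (SE 0.288), 0.29 for *Hbb-bs* (SE 0.198) and 0.68 for *Hbb-bt* (SE 0.311), and *Alas2* gave 0.45 (SE 0.276). With KO-Nut3 RH6 left out they were 0.23, 0.17, 0.08 (0.0756) and 0.26 for the hemoglobin genes and 0.21 for *Alas2*. The highest values with another single library left out were 0.61, 0.48, 0.49 and 0.94 for the hemoglobin genes and 0.60 for *Alas2*. For *Hbb-bs* the mean level was 33.0 ± 9.63 CPM with Nutlin-3 against 26.9 ± 4.60 CPM with vehicle (mean ± SD of 3 mice), and the difference was smaller than the SD of KO-Nut3.

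The genes with few reads had larger ratios and wider errors. *S100a9* had 59 reads in KO-Nut3 against 10 in KO-Veh, a ratio of 6.13 after scaling to reads on genes (exact interval for counting error 3.11 to 13.5), and its fitted log2 fold change was 2.54 (SE 0.666, adjusted *P*-value 0.257 in edgeR). Its groups did not overlap, as was the case for 7.85% of all genes in this direction, while 0 of the 8 genes lay clear on the lower side (5.44% of all genes). Without KO-Nut3 RH6 the log2 fold change was 1.65. *Slc4a1*, subject to the filter, had 18 reads against 2, a ratio of 9.36 (2.24 to 83.2), and 11 of the 18 reads came from KO-Nut3 RH6. Its log2 fold change of 2.98 (SE 1.16) was 2.22 (SE 1.33) without that library, and at most 5.60 with another single library left out. *S100a8* had 37 reads against 8, a ratio of 4.81 (2.20 to 11.95), and its log2 fold change of 2.18 (SE 1.26) became -1.28 without KO-Nut3 RH6.

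Marker genes of other tissue moved in the same comparison. The 14 choroid plexus genes, led by *Ttr* (transthyretin), *Kl* and *Clic6*, summed to 3660, 396 and 5225 CPM in KO-Nut3 and to 35.5, 46.8 and 57.9 CPM in KO-Veh. All 14 had a log2 fold change above 0 (median 4.91). Of these 14 genes, 5 passed the threshold in edgeR (*Slc4a5*, *Tmem72*, *Folr1*, *Kcne2* and *Ttr*). *Igf2* also passed, with a higher level in KO-Nut3, among 10 genes of meningeal fibroblasts. None of the 5 choroid plexus calls was kept without KO-Veh RH7, RH10 or RH16, and *Igf2* was kept without RH7 but not without RH10 or RH16. With all 12 libraries in one fit, 0 of these genes passed. The meningeal genes summed to 125, 242 and 109 CPM in KO-Nut3 and to 95.1, 98.9 and 105 CPM in KO-Veh without overlap, with 9 of 10 log2 fold changes above 0 and a median of 1.37. The choroid plexus is a vascular tissue, and its sum was also high in WT-Nut3 RH9, at 4890 CPM. The hemoglobin sum was 49.3 CPM in that library, below the median of 52.4 CPM. In KO-Nut3 RH6 and RH13 it was 81.7 and 63.3 CPM, above that median, and in KO-Nut3 RH8 it was 46.2 CPM, below it. The 14 endothelial genes summed to 504, 547 and 485 CPM in KO-Nut3 and to 472, 431 and 476 CPM in KO-Veh without overlap. Of them 0 passed, 10 had a log2 fold change above 0 and the median was 0.18. The 10 genes of mural cells, led by *Rgs5*, *Vtn* and *Cspg4*, summed to 246, 321 and 237 CPM in KO-Nut3 and to 229, 205 and 200.4 CPM in KO-Veh without overlap. Of these, 0 passed, 8 had a log2 fold change above 0 and the median was 0.38. The median of the 4 hemoglobin genes was 0.36. Of the 10 mural genes, 8 had a slope on *Hbb-bs* below 0 and 0 passed, as given below. The part of these tissues in the hemoglobin levels was not tested beyond the relations given below.

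The loss of *Fmr1* under vehicle was addressed by KO-Veh against WT-Veh, in which 4 of 22592 genes passed in edgeR (0.0177%) and 0 of the 8. DESeq2 called 22 genes, and edgeR called 21 with a term for animal numbers up to RH8 or from RH9 and 11 without WT-Veh RH15, with 0 of the 8 in each. Under the unadjusted threshold 1 of the 8 passed, *S100a9*, against 7.2% of all genes. Above 0 were 2 of the 8 log2 fold changes (48.9% of all genes), and 0 of the 8 had groups without overlap (5.9% of all genes on the higher side and 6.46% on the lower side). The hemoglobin genes differed by -0.14 (*Hba-a1*) to 0.09 (*Hba-a2*, 0.0870) on the log2 scale, less than 1 SE each. The summed level of the 4 hemoglobin genes differed by less than the SD of either group. *S100a9* gave -2.71 (SE 1.21, adjusted *P*-value 0.681 in edgeR), which rested on WT-Veh RH15 and became 2.45 when that library was left out.

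The effect of Nutlin-3 in WT mice was addressed by WT-Nut3 against WT-Veh, which share the WT-Veh libraries with the comparison above. None of the 22592 genes passed in edgeR (0.0%), with 717 genes under the unadjusted threshold (3.17%) and 1 of the 8 among them, *S100a9*. DESeq2 and limma-voom also called 0 genes, and edgeR called 11 with the term for animal number, with 0 of the 8 among them. Above 0 were 4 of the 8 log2 fold changes (50.1% of all genes). *Slc4a1* was the 1 gene whose groups did not overlap, on the lower side (3.92% of all genes), with all 6 libraries at or under the floor, and 0 of the 8 lay clear on the higher side (3.6%). The hemoglobin genes gave log2 fold changes of -0.07 for *Hba-a1* (-0.0704), 0.39 for *Hba-a2*, 0.14 for *Hbb-bs* and 0.38 for *Hbb-bt*. *S100a9* had 2 reads in WT-Nut3 against 70 in WT-Veh, of which 69 were from WT-Veh RH15. Its log2 fold change of -4.90 (SE 1.71) became 0.26 without that library.

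KO-Nut3 against WT-Nut3 compared the genotypes under Nutlin-3 and shares the KO-Nut3 libraries with the first comparison. In edgeR 1 gene passed, *Fmr1* (0.00443%), and 0 of the 8, with 2 of the 8 under the unadjusted threshold (*S100a9* and, subject to the filter, *Slc4a1*, beside 4.87% of all genes). The 8 log2 fold changes were above 0 (51.1% of all genes), from 0.01 for *Hba-a2* (0.00554) to 4.73 for *S100a9*. *S100a9* had 59 reads against 2, a ratio of 32.3 (8.56 to 273), and its groups did not overlap, as for 5.3% of genes in this direction, and 0 of the 8 lay clear on the lower side (5.35%). Its log2 fold change was 3.85 without KO-Nut3 RH6, which held 38 of the 59 reads. *Slc4a1*, again subject to the filter, had 18 reads against 3, a ratio of 6.58 (1.92 to 34.9). Its log2 fold change of 2.54 became 1.79 (SE 1.18) without that library.

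**Figure D2:**
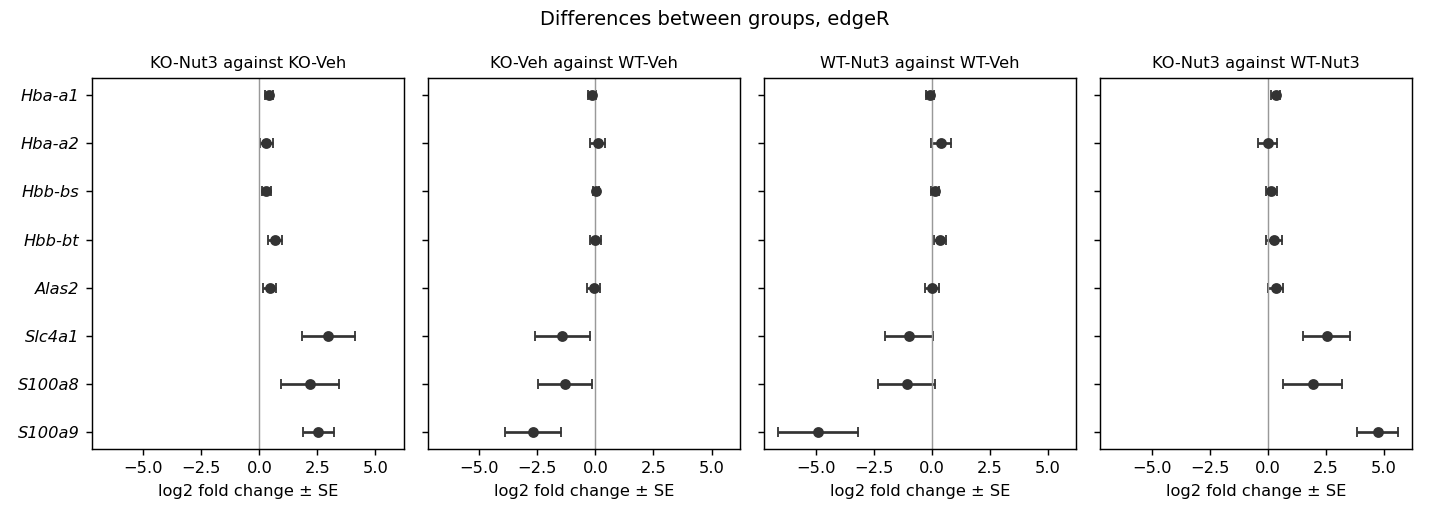
Log2 fold change of each of the 8 genes with its standard error (x axis, whiskers) in 4 comparisons between groups, from edgeR. The hemoglobin genes lie between -0.14 and 0.68, and the widest values are those of *S100a9* (from -4.90 to 4.73), which has few reads outside 2 libraries.

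Whether Nutlin-3 acted differently in the genotypes was asked with the interaction of genotype and treatment over the 12 libraries. In edgeR 0 of 22592 genes passed (0.0%, with 942 genes or 4.17% under the unadjusted threshold), and 2 of the 8 had an unadjusted *P*-value under 0.05, *S100a9* and, subject to the filter, *Slc4a1*. DESeq2 called 1 gene, not one of the 8, and limma-voom 0. The interaction of *S100a9* was 7.44 (SE 2.03, adjusted *P*-value 0.994) and came to 1.39 (SE 1.97) with WT-Veh RH15 and KO-Nut3 RH6 left out. Above 0 were 7 of the 8 values (51.3% of all genes). For the hemoglobin genes the interaction ranged from -0.07 (*Hba-a2*, -0.0748) to 0.49 (*Hba-a1*). Without both libraries it was 0.18 for *Hba-a1*, -0.36 for *Hba-a2*, -0.14 for *Hbb-bs* and -0.19 for *Hbb-bt*, turning from 0.16 and 0.30 for the beta genes. The interaction of *Slc4a1*, 3.97 (SE 1.60) with all libraries, was 3.24 (SE 1.84) without both.

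Pooling the genotypes, with 6 libraries on each side, gave the closest look at treatment. Between all Nut3 and all Veh, 0 of 22592 genes passed in edgeR (0.0%, with 1647 genes or 7.29% under the unadjusted threshold), while DESeq2 called 79 genes and limma-voom 0, with 0 of the 8 in each. Of the 8 log2 fold changes 7 were above 0 (49.9% of all genes), those of the 4 hemoglobin genes among them, at 0.17 for *Hba-a1*, 0.35 for *Hba-a2*, 0.22 for *Hbb-bs* and 0.53 for *Hbb-bt* (SE 0.212, adjusted *P*-value 0.600). *Hbb-bt* was the 1 member under the unadjusted threshold, with 4.03 ± 1.51 CPM in Nut3 and 2.78 ± 0.360 CPM in Veh (SD, *n* = 6 each). It came to 0.36 without both WT-Veh RH15 and KO-Nut3 RH6, and 0.33 without KO-Nut3 RH6 alone. Without KO-Nut3 RH6 the others were 0.06 (*Hba-a1*, 0.0610), 0.29 (*Hba-a2*) and 0.11 (*Hbb-bs*), and without WT-Nut3 RH14 they were 0.13, 0.19 and 0.13. In 0 of the 8 did the sides not overlap (0.15% of all genes higher and 0.093% lower). Markers of other tissue moved here too, with 0 past the threshold. Above 0 were 14 of 14 choroid plexus genes (median 4.85), 9 of 10 meningeal genes (0.25), 9 of 10 mural genes (0.19) and 9 of 14 endothelial genes (0.05, 0.0473). Of 10 hippocampal neuron genes, 9 were below 0 (median -0.08, -0.0759). Between all KO and all WT, 1 gene passed (*Fmr1*, 0.00443%), 0 of the 8 passed at either threshold (8.16% of genes under the unadjusted one). The 8 log2 fold changes were above 0 (51.9% of all genes), the hemoglobin genes differed by 0.05 (0.0475) to 0.15, and the sides overlapped for all 8 (0.177% of all genes lay clear higher and 0.359% lower).

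One choice of filter changed the calls of *S100a9*. When all 35930 genes with at least 1 read were tested, *S100a9* passed the threshold of edgeR in the 4 pairs of groups and in the interaction, where 38 to 544 genes were called, and in KO-Nut3 against KO-Veh its adjusted *P*-value was 0.00864 (0.00864 to 0.585 over all alternatives that kept the libraries). The other 7 genes were not called in any of the 7 comparisons under the alternatives that tested them.

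The hemoglobin genes followed each other from library to library. Against *Hbb-bs* on the log2 CPM scale, *Hba-a1* gave Pearson's *r* = 0.916 (permutation *P* = 4.00e-05, adjusted *P* = 0.000520 over 13 relations) and Spearman's rho = 0.937 (permutation *P* = 4.00e-05, adjusted 0.000520) over 12 libraries. *Hba-a2* gave *r* = 0.827 (permutation *P* = 0.00103, adjusted 0.00669) and rho = 0.860 (permutation *P* = 0.000750, adjusted 0.00487). *Hbb-bt* gave *r* = 0.800 (permutation *P* = 0.00159, adjusted 0.00689) and rho = 0.776 (permutation *P* = 0.00431, adjusted 0.0187).

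Leaving out KO-Nut3 RH6 and WT-Nut3 RH14, the libraries farthest from the median of *Hbb-bs*, *r* was 0.863 for *Hba-a1* and 0.793 for *Hba-a2* but 0.508 for *Hbb-bt*, whose relation therefore rested in part on them. The libraries also fell into 2 sets by the share of reads mapped to several places, 3.07% to 3.22% up to animal number RH8 and 3.33% to 3.55% from RH9. Within the 6 libraries of each set, *r* was 0.933 and 0.880 for *Hba-a1*, 0.831 and 0.834 for *Hba-a2*, and 0.845 and 0.870 for *Hbb-bt*. With the group means removed, *r* was 0.951, 0.811 and 0.772.

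**Figure D3:**
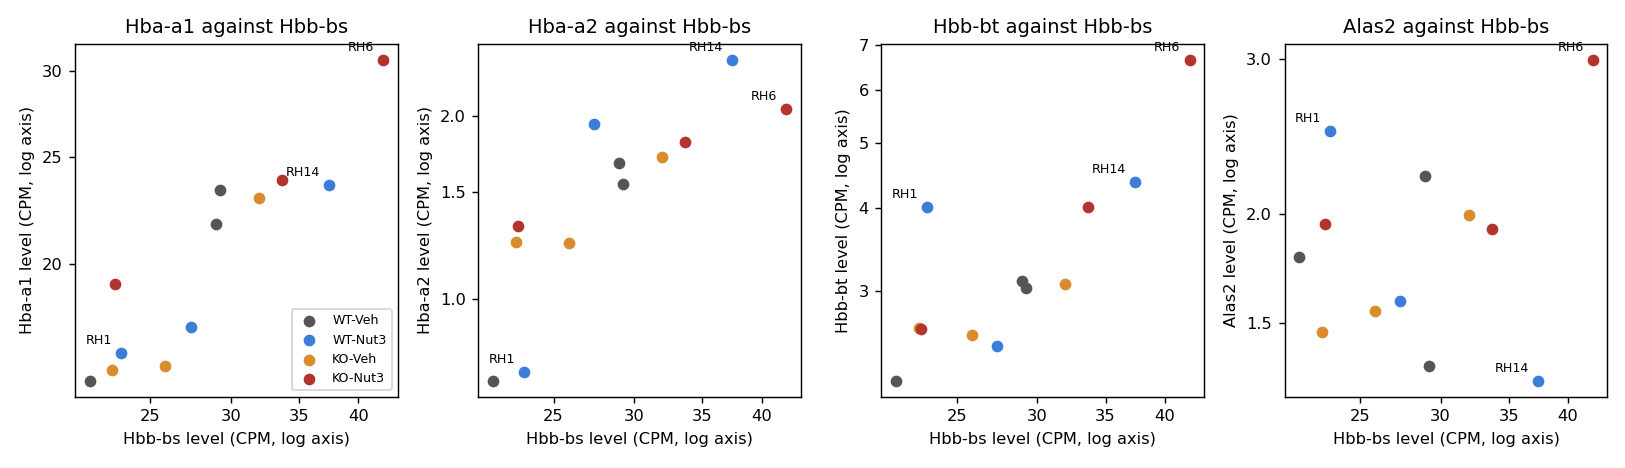
Levels of *Hba-a1*, *Hba-a2*, *Hbb-bt* and *Alas2* (y axes) against *Hbb-bs* (x axes) in CPM on log axes, with 1 point for each of the 12 libraries colored by group. *Hba-a1* rises along with *Hbb-bs* (*r* = 0.916), while *Alas2* does not line up with it (*r* = 0.199) and is high in WT-Nut3 RH1.

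Over the 12 libraries the other genes had a smaller *r* with *Hbb-bs*, and it differed between the sets by animal number. *Alas2* gave *r* = 0.199 (permutation *P* = 0.534, adjusted 0.578, rho = 0.105, permutation *P* = 0.750, adjusted 0.812), and WT-Nut3 RH1 was second highest for *Alas2* and among the lowest 4 for *Hbb-bs*. *Slc4a1* gave *r* = 0.353 (permutation *P* = 0.261, adjusted 0.424, rho = 0.204, permutation *P* = 0.523, adjusted 0.662) with at most 11 reads in a library. *S100a8* gave *r* = 0.545 (permutation *P* = 0.0661, adjusted 0.172, rho = 0.465, permutation *P* = 0.130, adjusted 0.282) and *S100a9* gave *r* = 0.297 (permutation *P* = 0.348, adjusted 0.428, rho = 0.203, permutation *P* = 0.523, adjusted 0.662). Within the 6 libraries up to RH8, which hold KO-Nut3 RH6, *r* was 0.686 for *Alas2*, 0.932 for *Slc4a1*, 0.803 for *S100a8* and 0.607 for *S100a9*. Within the 6 libraries from RH9 it was 0.105, 0.192, -0.113 and -0.0875 in the same order.

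*S100a8* and *S100a9* gave *r* = 0.692 with each other (permutation *P* = 0.0123, adjusted 0.0401) and rho = 0.494 (permutation *P* = 0.106, adjusted 0.276). Without WT-Veh RH15 and KO-Nut3 RH6, *r* was 0.112 over 10 libraries, so the relation rested on this pair. With single libraries left out it lost the threshold in 8 of 12 fits, with adjusted *P* up to 0.168 by permutation. Within the sets up to RH8 and from RH9 it was 0.708 and 0.747, and each set holds 1 of the pair.

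Measures of other tissue and of depth did not pass the threshold for a relation with *Hbb-bs* over the 12 libraries. Mean log2 levels of endothelial genes gave *r* = -0.104 (permutation *P* = 0.749, adjusted 0.749, rho = -0.0629, permutation *P* = 0.851, adjusted 0.851), those of choroid plexus genes *r* = 0.461 (permutation *P* = 0.130, adjusted 0.281, rho = 0.497, permutation *P* = 0.104, adjusted 0.276) and those of meningeal fibroblast genes *r* = -0.289 (permutation *P* = 0.362, adjusted 0.428, rho = -0.231, permutation *P* = 0.469, adjusted 0.662). Within the sets by animal number the choroid plexus relation was 0.735 up to RH8 and 0.131 from RH9. With the group means removed, *r* was -0.473 for endothelial, 0.279 for choroid plexus and -0.675 for meningeal fibroblast genes. In the edgeR fit of slopes on *Hbb-bs* described next, 10 of 10 meningeal genes had a slope below 0 (median -1.39) and 14 of 14 choroid plexus genes one above 0 (median 1.92). The slope was also below 0 for 8 of 10 mural genes (median -0.33) and 10 of 14 endothelial genes (median -0.07, -0.0680). Of all these genes 0 passed. Reads on genes gave *r* = -0.371 (permutation *P* = 0.235, adjusted 0.424, rho = -0.189, permutation *P* = 0.560, adjusted 0.662) and the share of reads mapped to several places *r* = 0.291 (permutation *P* = 0.354, adjusted 0.428, rho = 0.406, permutation *P* = 0.193, adjusted 0.358). The last became 0.691 without KO-Nut3 RH6 and WT-Nut3 RH14, and was -0.200 up to RH8 and 0.376 from RH9.

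The slope of every gene on *Hbb-bs* was fitted in edgeR with the group as a factor. The slopes of 0 of 22591 genes passed the threshold (0.0%, with 1333 genes or 5.9% under the unadjusted one). *Hba-a1* had a slope of 0.885 log2 units per log2 unit of *Hbb-bs* (SE 0.124, adjusted *P*-value 0.0817). *Hba-a2* had 1.37 (SE 0.399) and *Hbb-bt* 0.996 (SE 0.309), and *Alas2* had 0.08 (0.0835, SE 0.403). *S100a8* had 4.61 (SE 1.88), *S100a9* 2.79 (SE 1.59) and *Slc4a1* 1.51 (SE 1.38), all with few reads in most libraries. All 7 slopes were above 0 (50.7% of all genes). Of the 7, 4 were under the unadjusted threshold, the 3 hemoglobin genes and *S100a8*, beside the 5.9% of all genes. DESeq2 called 10 slopes, among them *Hba-a1*, and without the group factor edgeR called 25.

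Among 15341 genes with a mean of at least 1 CPM, the 10 whose log2 levels were most like *Hbb-bs* over the 12 libraries were *Pm20d1* (*r* = 0.910), *Tram2* (0.878), *Cachd1* (0.873), *Zfp521*, *Sv2c*, *Gm3248*, *Wdr25*, *mt-Co3*, *Lbhd1* and *Smim10l1* (0.820). These values are the top of a search over many genes and are given as a description without a test. *Hba-a1* would have ranked 1, *Hba-a2* 10 and *Hbb-bt* 19 in this order. *Pm20d1* encodes a secreted enzyme of N-acyl amino acid metabolism, *Sv2c* a synaptic vesicle protein and *mt-Co3* a subunit of cytochrome c oxidase.

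Among 10 other genes of the globin family, the embryonic ones were read almost wholly in 1 library. *Hbb-y* had 138 reads in WT-Veh RH15, 2 in WT-Veh RH5 and 0 in the other 10 libraries. *Hba-x* had 59 reads and *Hbb-bh1* 13 reads in WT-Veh RH15 and 0 elsewhere. Together they made up 15.9% of the hemoglobin reads in WT-Veh RH15 (95% exact binomial interval 13.98% to 17.996%), while the 4 adult genes of that library (57.2 CPM) lay within the range of the others. In a library without such reads the interval allows at most 0.484%.

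Of the globins that brain cells make, cytoglobin was more abundant than neuroglobin. Cytoglobin (*Cygb*) led the list with a mean of 53.0 CPM. Neuroglobin (*Ngb*) had a mean of 3.35 CPM, with 146 reads in KO-Nut3 RH6 and 31 to 69 reads in the other libraries. In KO-Nut3 against KO-Veh, 0 of the 7 globins tested passed in edgeR, 5 had a log2 fold change above 0 and 2 (*Hba-x* and *Hbb-y*) were at 0 reads in both groups.

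Other genes of red cells gave little beyond hemoglobin. Of 30 genes listed for the red cell and its precursors, 29 were found and 20 were tested, and 0 passed in any of the 7 comparisons in edgeR. The list was led by *Add2*, *Sptb* and *Dmtn*, membrane skeleton genes that neurons also express, and its sum of 1931 to 2103 CPM over libraries was lowest in KO-Nut3 RH6. Genes closer to the red cell lineage were near 0, with at most 2 reads in a library for the membrane protein gene *Epb42* and the transcription factor *Gata1*, and 2 to 10 for *Klf1*. *Tal1*, a factor of blood and of midbrain and thalamic neurons, had 246 reads in KO-Nut3 RH6 and 29 to 59 elsewhere.

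Heme genes outside the red cell were even across the libraries. The 8 genes of heme synthesis other than *Alas2*, led by *Fech*, *Cpox* and *Alas1*, summed to 289 to 323 CPM. Of these, 0 passed in any comparison in edgeR, and the medians of their log2 fold changes ran from -0.03 (-0.0300) to 0.03 (0.0295). The 15 genes of heme breakdown and iron handling, led by the ferritin gene *Fth1*, summed to 1967 to 2403 CPM, and 0 passed.

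Neutrophil genes were highest in WT-Veh RH15 and KO-Nut3 RH6. The 22 neutrophil genes other than calprotectin summed to 34.7 CPM in WT-Veh RH15, 25.6 CPM in KO-Nut3 RH6 and 17.7 to 22.3 CPM in the other libraries. The most abundant genes of the list were *Csf3r*, *Itgam* and *Hdc*, which microglia or neurons can also express, at 10.1, 5.41 and 1.55 CPM in WT-Veh RH15 and means of 8.11, 4.9999 and 2.02 CPM over the 12 libraries. *Lcn2*, a neutrophil granule protein also made in inflamed epithelium, had 118 reads in WT-Veh RH15, 22 in KO-Veh RH7, 18 in KO-Nut3 RH6 and 0 to 5 elsewhere. *Ngp*, a granule protein of neutrophil precursors, had 39 reads in KO-Nut3 RH6, 22 in WT-Veh RH15 and 0 to 5 elsewhere. The neutrophil surface gene *Ly6g* had 1 read in all.

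Platelet genes were also highest in these libraries, and the other blood lists differed in order. The 13 platelet genes summed to 13.7 CPM in WT-Veh RH15, 11.6 CPM in KO-Nut3 RH6 and 6.99 to 9.69 CPM elsewhere, and *Ppbp*, a platelet chemokine, had 59 reads in WT-Veh RH15 and 0 to 7 elsewhere. The platelet sums were 11.6, 9.05 and 9.56 CPM in KO-Nut3 and 8.98, 6.99 and 8.49 CPM in KO-Veh, without overlap. Between these groups, 8 of the 9 platelet genes tested had a log2 fold change above 0 (median 0.52), as had 50.8% of all genes. The same held for 9 of 15 neutrophil, 5 of 9 monocyte, 3 of 5 T and NK cell and 6 of 7 B cell genes. Monocyte sums did not overlap either, with the lowest in KO-Nut3 at 14.42 CPM and the highest in KO-Veh at 14.36 CPM. The sums of the neutrophil, T and NK cell and B cell genes overlapped. The 11 monocyte genes summed to 18.1 CPM in WT-Veh RH15 and 12.3 to 16.9 CPM elsewhere, with KO-Nut3 RH6 at 14.4 CPM, the median. The 17 T and NK cell genes summed to 2.78 to 4.82 CPM, highest in KO-Nut3 RH6, with WT-Veh RH15 at 3.19 CPM below the median of 3.33 CPM. The 10 B cell genes, led by *Ighm*, summed to 9.09 to 18.002 CPM with a median of 14.8 CPM, highest in KO-Veh RH16, with WT-Veh RH15 at 15.5 CPM and KO-Nut3 RH6 at 13.9 CPM. None of the genes of the neutrophil, monocyte, platelet, T and NK cell and B cell lists passed in any of the 7 comparisons in edgeR (15, 9, 9, 5 and 7 genes tested).

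**Figure D4:**
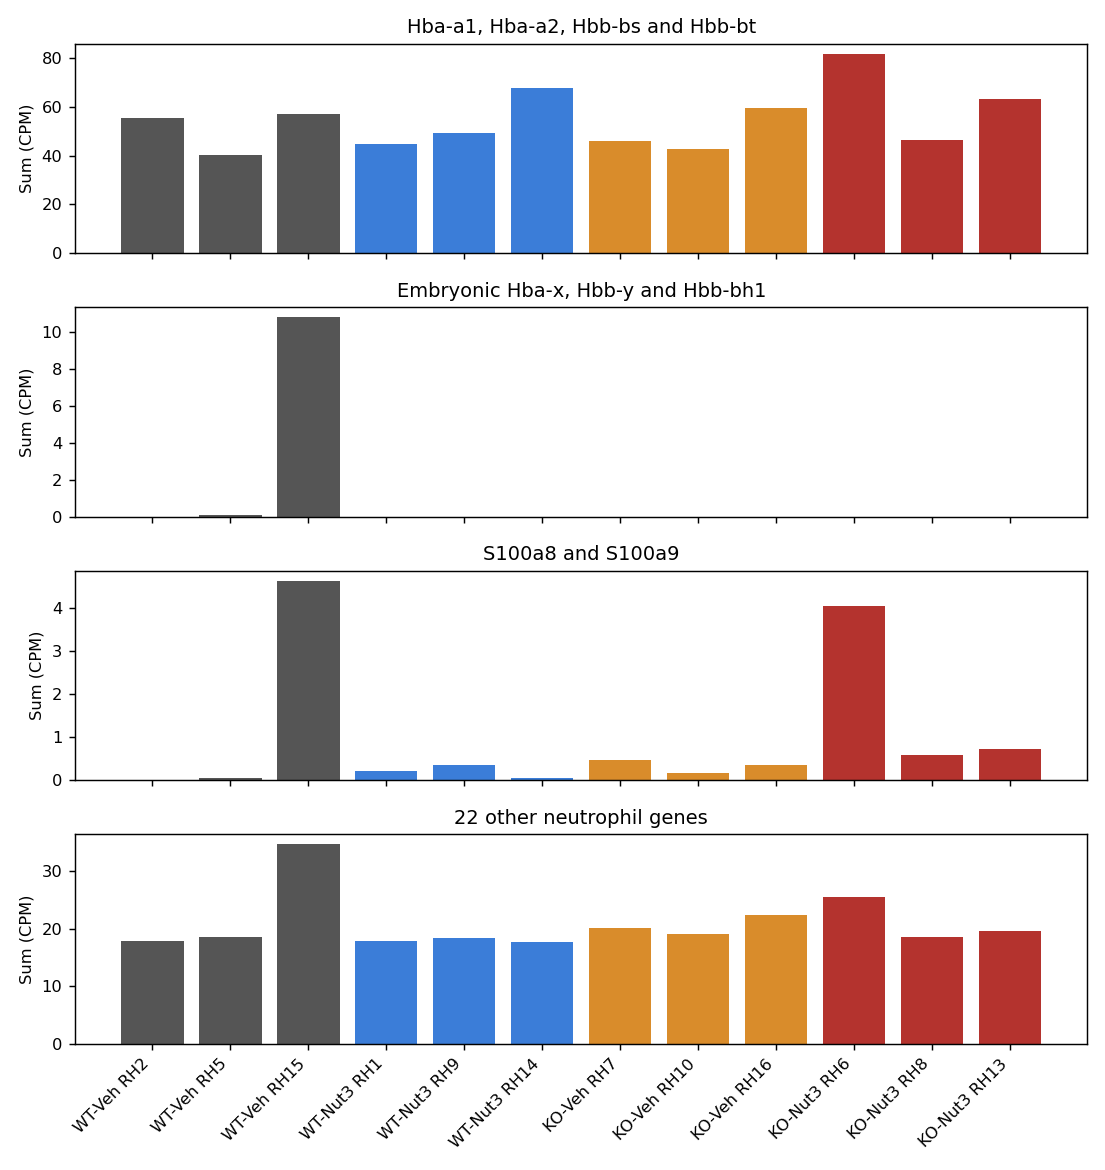
Summed level in CPM (y axes) of the 4 adult hemoglobin genes, 3 embryonic hemoglobin genes, *S100a8* with *S100a9*, and 22 other neutrophil genes in each of the 12 libraries (x axis, colored by group). Embryonic hemoglobin is seen in WT-Veh RH15, calprotectin is high in WT-Veh RH15 (4.64 CPM) and KO-Nut3 RH6 (4.05 CPM), and adult hemoglobin is highest in KO-Nut3 RH6 (81.7 CPM).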

How the data were processed

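Poly(A) RNA of 12 hippocampi, 3 mice per group, was sequenced. Per the methods and the submitters' processing notes, the authors mapped the reads to mm10 with STAR, whose version and annotation are not given in the sources used here, and deposited raw counts of reads per gene without normalization. The labels name a single-read layout and the methods a paired-end one. A table of the whole series was not used. Column 2, the sum of both strands, was taken. Identifiers were matched to GENCODE M21 symbols.

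Genes with more than 20 counts over the 12 libraries were tested with edgeR 4.0.16 in R 4.3.3 (TMM, quasi-likelihood, two-sided, Benjamini-Hochberg, threshold 0.05), with a separate fit of 6 libraries for each pair. The interaction, the pooled comparisons (genotype plus treatment) and the slope used all 12. A standard error is the log2 fold change over the square root of *F*. Log2 CPM used a prior count of 1. Correlations used 100000 permutations, two-sided. Alternatives were DESeq2 1.42.0, limma-voom (limma 3.58.1), DESeq2 size factors, filterByExpr, all genes with at least 1 count, near copies summed, a term for animal number in 2 levels (up to RH8, from RH9), all libraries in one fit, a prior count of 0.25, and each library left out. Leaving out WT-Veh RH15 and KO-Nut3 RH6 together was added after the values were seen. The fits were tested on simulated counts.

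The 8 genes and all lists (red cell, heme, white cell, platelet, vessel, choroid plexus, meninges, microglia, hippocampal neuron) were chosen with earlier results of these data known. Named genes are the 8, the 10 most like *Hbb-bs*, the top 3 of a list by mean CPM, list genes past the threshold, and *Fmr1*; other genes were named after their values were seen. The labels give each library an RH number in its title, read here as an animal number, and no preparation batch. No pair of libraries within a group agreed within sampling noise. *P*-values measure the spread between mice.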

Additional observations from a re-analysis of the deposited data

Results flagged for a closer look

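In pooled groups of 6 libraries (by genotype or by treatment), the highest or lowest level of each of the 8 genes was compared with its nearest neighbor, as the share of the whole range of the group that the gap takes up. For normally distributed values a gap this large arises by chance in about 1 of 20 groups. That rate need not hold for *S100a8* and *S100a9*, which are near the floor in most libraries and gave most of the gaps. In all, 10 were found in 32 groups that overlap each other and hold genes that move together. No level was far below the others.

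KO-Nut3 RH6 stood out in the KO libraries for *Hbb-bt* (6.66 CPM, next 4.01 CPM), *Alas2* (2.99 CPM, next 1.99 CPM), *S100a8* (1.94 CPM, next 0.206 CPM) and *S100a9* (2.11 CPM, next 0.604 CPM). It also stood out among the Nut3 libraries for *S100a8* (1.94 CPM, next 0.298 CPM) and *S100a9* (2.11 CPM, next 0.604 CPM). For *Hbb-bs* and *Hba-a1* the same library was the highest of 12 without a gap of that size.

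WT-Veh RH15 stood out in the WT libraries for *S100a8* (1.08 CPM, next 0.298 CPM) and *S100a9* (3.55 CPM, next 0.0525 CPM), and among the Veh libraries for *S100a8* (1.08 CPM, next 0.206 CPM) and *S100a9* (3.55 CPM, next 0.258 CPM).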

How the results depend on the processing

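None of the 8 genes passed in any of the 7 comparisons under DESeq2, limma-voom, DESeq2 size factors or a term for animal number, nor with any library left out (0 to 0 in each comparison). None passed with the near copies summed, which left 6 values for the 8 genes, with all libraries in one fit, which was run for the 4 pairs, or with filterByExpr, which did not test *Slc4a1* and *S100a8* and, in both comparisons with WT-Veh, *S100a9*. Testing all genes with at least 1 count brought 1, *S100a9*, past the threshold in the 4 pairs and the interaction. Slopes on *Hbb-bs* were 0 in edgeR, 10 with DESeq2, 385 with all genes of at least 1 count and 25 without the group factor, and 0 to 4 with a library left out: 4 without WT-Nut3 RH1 (*Bpifa2*, *Wnt4*, *Pax7*, *Sv2c*), 1 without KO-Nut3 RH6 (*Bpifa2*) and 2 without KO-Nut3 RH13 (*Bpifa2*, *Pou4f1*). Relations with an adjusted Pearson *P* under 0.05 numbered 4 of 13, and 2 to 4 with a library left out; 2 were left without KO-Nut3 RH6, and 2 without both WT-Veh RH15 and KO-Nut3 RH6. In both cases *Hbb-bt* was lost (*r* = 0.664 and 0.669), as was *S100a8* with *S100a9*, which lost the threshold in 8 of the 12 fits with a library left out (*r* 0.571 to 0.829). Counts over all genes moved by over 1.5 times in several settings. DESeq2 gave 245 in place of 45 (KO-Nut3 against KO-Veh), 22 in place of 4 (KO-Veh against WT-Veh), 7 in place of 1 (KO-Nut3 against WT-Nut3), 79 in place of 0 (all Nut3 against all Veh), 43 in place of 1 (all KO against all WT) and 1 in place of 0 (interaction). In the first 4 of these and the interaction, all genes with at least 1 count gave 544, 272, 38, 539 and 291, with 249 in WT-Nut3 against WT-Veh and 239 in all KO against all WT. The term for animal number gave 20, 21, 11 (WT-Nut3 against WT-Veh), 3 (all Nut3) and 10 (all KO), limma-voom gave 19 (KO-Nut3 against KO-Veh) and 2 (all KO), and all libraries in one fit gave 0 and 1 in the first pair of comparisons. With a library left out, KO-Nut3 against KO-Veh ran from 6 (without KO-Veh RH7 or RH10) to 266 (without KO-Nut3 RH8), KO-Veh against WT-Veh from 2 to 11 (without WT-Veh RH15), KO-Nut3 against WT-Nut3 from 0 to 7 (without WT-Nut3 RH9), all Nut3 from 0 to 19 (without WT-Nut3 RH14) and all KO from 1 to 10 (without KO-Nut3 RH6; 16 without both libraries). The causes were not tested.

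With single libraries left out, *r* with *Hbb-bs* ran from -0.271 to 0.459 for *Alas2*, from -0.0559 to 0.611 for *Slc4a1* and from -0.366 to 0.140 for endothelial genes. In all Nut3 against all Veh, *Hba-a1* ran from 0.0610 to 0.25, *Hba-a2* from 0.19 to 0.51 and *Hbb-bs* from 0.11 to 0.30. Log2 fold changes of *S100a8* ran from -1.28 to 2.75 (KO-Nut3 against KO-Veh) and from -1.13 to 2.46 (all Nut3 against all Veh), and those of *S100a9* from -1.34 to 2.31 (all Nut3 against all Veh), from -3.27 to 2.45 (KO-Veh against WT-Veh) and from -5.46 to 0.26 (WT-Nut3 against WT-Veh). In all Nut3 against all Veh, *S100a9* was -0.45, but 1.13 with limma-voom and 1.43 without both libraries, which also turned *r* with *Hbb-bs* to -0.244 (*Alas2*), -0.0753 (*Slc4a1*) and -0.114 (*S100a9*). *Fmr1* kept its direction in every fit, and its adjusted *P*-value in KO-Nut3 against WT-Nut3 was 0.0991 in edgeR without WT-Nut3 RH14. No paired analysis was possible because the groups share no animal numbers. At 0 to 11 reads per library, depth limits *Slc4a1*, and calprotectin outside 2 libraries.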

Other observations

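WT-Veh RH15 held secretory genes that were nearly absent from the other 11 libraries. *Dcpp2* had 2154 reads there and at most 3 in any other library, *Dcpp1* 547 reads, *Muc19* 495 reads, *Mucl2* 293 reads, *Bpifa2* 241 reads and *Klk1* 139 reads. These genes are known from salivary glands, which are not part of the labelled tissue. *Scgb2b27* (139 reads), *Scgb1b27* (99 reads), *Car6* (25 reads) and *Prol1* (22 reads), also secretory genes, were found in the same library, next to *Pigr* (41 reads), *Mmp12* (52 reads), *Ccl2* (23 reads), *Clec4e* (20 reads) and the embryonic *Hbb-y* (138 reads) and *Hba-x* (59 reads). The marker sum of hippocampal neurons in that library was 5380 CPM, near the median of 5421 CPM.

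KO-Nut3 RH6 held transcription factor genes of that kind instead, with *Pax7* at 247 reads, *Shox2* at 246, *Sox14* at 88 and *Foxb1* at 50, each with at most 3 reads in any other library. These factors are known from midbrain, thalamus and hypothalamus. The same library had the lowest sums of hippocampal neuron genes (4267 CPM) and microglia genes (236 CPM) of the 12. The rule that found these genes was set after their values were seen, and how they relate to the hemoglobin and calprotectin reads of the same libraries was not tested.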
